A study of Mus musculus with 6 samples.

Results

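Clustered histone genes were followed in RNA selected for poly A from mouse embryonic palatal mesenchyme, the connective tissue precursor of the secondary palate. The members were the gene symbols starting with Hist1h, Hist2h, Hist3h or Hist4h, with the values of their transcripts summed, and they numbered 67 of 23443 symbols. By histone type they comprised 6 H1, 18 H2A, 18 H2B, 12 H3 and 13 H4 genes, and by cluster 53 Hist1, 10 Hist2, 3 Hist3 and 1 Hist4 genes. Cells that fluoresced red from an Osr2RFP allele were sorted from dissected palatal shelves, so every library carries that allele. Mutants were Osr2RFP/- and controls Osr2RFP/+, on a mixed strain background, and Osr2 encodes a zinc finger transcription factor of the palate. There was 1 mutant and 1 control library at embryonic day 12.5 (E12.5) and 2 of each at E13.5. What either allele lacks of Osr2 is not in the labels, nor is whether a library holds 1 embryo or a pool, so the p-values speak of the spread among libraries alone.

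Clustered histone genes encode the linker histone H1 and the core histones H2A, H2B, H3 and H4, on which nuclear DNA is wound. Most of them are transcribed in S phase, when new chromatin needs histones, and they lie together in a few clusters that keep many near-identical copies of each type. Their mRNA is unusual because it normally ends in a short stem-loop, bound by the stem-loop binding protein SLBP, in place of a poly A tail. Poly A selection is therefore expected to lose much of this RNA, and the level seen here is what passed the selection. In bulk libraries, fewer cells in S phase and less histone RNA per cell cannot be told apart.

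The stem-loop could be read in the GENCODE M21 models (GRCm38) of 43 of the 66 members that have a coding model there, by searching for the histone stem-loop consensus on the transcript strand after the stop codon. It began 21 to 58 bases after the stop codon, with a median of 31. All 10 H4 stem-loops found had GGCCC and GGGCC as their outer letters, while the other 33, from H1, H2A, H2B and H3 genes, had GGCTC and GAGCC. Each is shown as 26 bases with the 16 bases of the stem-loop in capitals, for the most abundant H4, H2A and H3 member that has one, an H1 member, and an H2B member that differed with age.
Hist1h4d, chr13:23581945-23581970, plus strand: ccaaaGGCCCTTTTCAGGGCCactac
Hist2h2ac, chr3:96220413-96220438, minus strand: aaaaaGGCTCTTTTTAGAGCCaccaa
Hist1h3e, chr13:23561898-23561923, minus strand: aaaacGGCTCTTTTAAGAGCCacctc
Hist1h1e, chr13:23621777-23621802, minus strand: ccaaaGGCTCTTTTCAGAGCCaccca
Hist1h2bm, chr13:21722501-21722526, plus strand: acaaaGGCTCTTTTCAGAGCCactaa
The loop letters also varied, since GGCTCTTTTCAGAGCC was present in 25 members and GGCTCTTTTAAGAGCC in 6. In 22 members the model ran over 100 bases past the stem-loop, by 770 bases in Hist1h4d and 1153 in Hist1h1e. A poly A signal (AATAAA or ATTAAA) lay in the last 50 bases of a model of 15 members, and 12 of these also held a stem-loop. Models that end at the stop codon show neither feature. FPKM is fragments per kilobase, scaled by the authors to mapped fragments, and so a level per length.

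The copies resemble each other closely, which limits what short reads can assign. Between members of the usual coding length, the median identity of the coding sequence was 96.4% for H2A, 96.6% for H2B, 97.6% for H3 and 93.9% for H4. Of 75-base windows of the coding sequence, the length of a read, at least 50% were found in no other gene's transcript for 19 members, and none for 12. Hist1h4d had 83.6% such windows, Hist1h2bm 75.2%, Hist2h2ab 89.7% and Hist1h2bk 5.21%. Levels and changes of members with a low share are uncertain, because reads may have been split between copies. The authors' gene model equalled the coding sequence in length for 31 members, Hist1h4d among them at 312 bases, so the level per length rests on that model and not on the stem-loop or what follows it.

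Depth was about 14100000 to 18000000 fragments per library, as estimated from the coverage. Osr2 stood at 163 and 215 FPKM in the E12.5 mutant and control, 68.5 and 88.4 in the E13.5 mutants, and 138 and 152 in the E13.5 controls, so it was lower in mutants than in controls of the same age. Mesenchyme markers were all present (10 of 10 with a mean of at least 1 FPKM, summing to 855 to 1030 FPKM), while the summed markers of oral epithelium, endothelium, leukocytes and skeletal muscle reached at most 5.47, 0.534, 3.99 and 1.50 FPKM. Summed erythroid genes, mostly globins, stood at 729 and 686 FPKM in the E12.5 mutant and control, 468 and 261 in the E13.5 mutants, and 586 and 495 in the E13.5 controls, which put both E12.5 libraries highest. Summed neuron genes ranged from 15.3 to 54.3 FPKM and were highest in the E13.5 mutants. Of these 7 genes only 2, Nefl and Nefm, had a mean of at least 1 FPKM, and the others averaged at most 0.824. Xist, which coats the inactive X chromosome, was 129 and 141 FPKM at E12.5 and 138 in E13.5 mutant replicate 2, and at most 0.0194 in the other 3 libraries, so sex is not balanced between the ages or within E13.5. The number in the sample titles also goes with age, being 2962 in both E12.5 libraries, 3047 in E13.5 mutant replicate 1 and 3048 in the other 3.

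Together the 67 members made up 0.652% to 0.770% of the summed FPKM of a library. Their sum was 1331 FPKM in the E12.5 mutant, 1155 in the E12.5 control, 1086 and 1056 in the E13.5 mutants, and 1286 and 1084 in the E13.5 controls. The E12.5 mutant and E13.5 control replicate 1 were the highest, and the other 4 libraries lay close together. The FPKM of all genes also summed higher in the E12.5 mutant (189855) than in the E12.5 control (154919). Under the other scalings tried, the histone sum of the E12.5 mutant was slightly below that of its control, so its high place depends on the scaling. At E13.5 the mean was 1071 ± 21.1 FPKM in mutants and 1185 ± 143 in controls (SD, n = 2 each), a log2 difference of -0.15 against a pooled SD between replicates of 0.13. Without control replicate 1 that difference was -0.02. Between ages the log2 difference of the sums was -0.14 (mean 1243 FPKM over 2 libraries at E12.5 and 1128 over 4 at E13.5), and it became 0.04 without Hist1h4d.

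**Figure D1:**
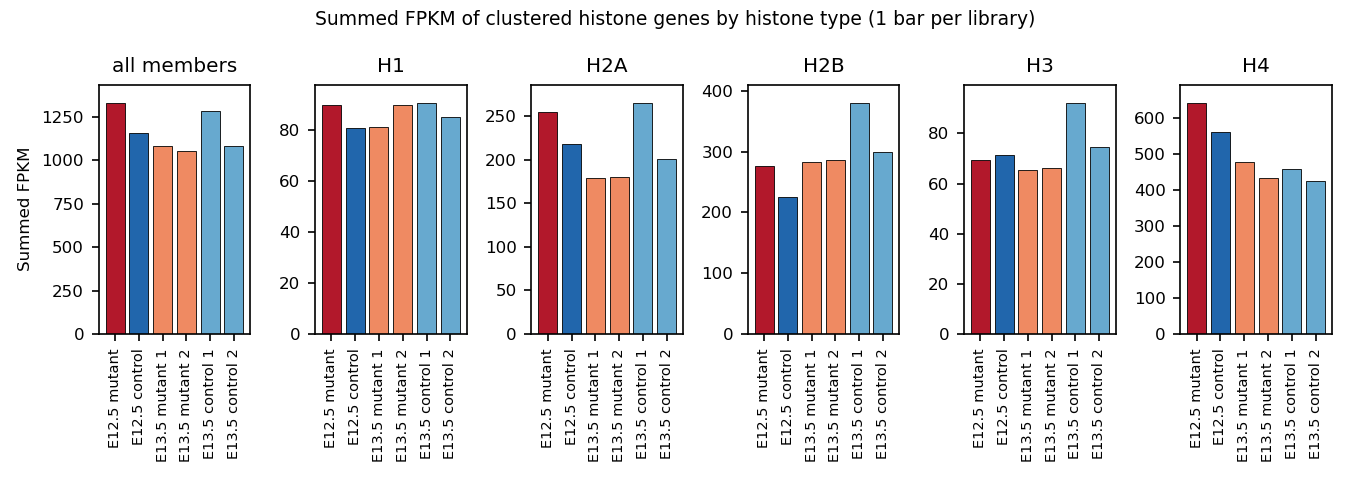
Summed FPKM of the clustered histone genes in each library, for all 67 members and for each histone type; 1 bar is 1 library and each panel has its own axis from 0. H4 was higher in both E12.5 libraries (641 and 559 FPKM) than in the E13.5 libraries (424 to 478), while H2B was highest in E13.5 control replicate 1 (380).

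The histone types did not follow one course. Summed H4 was 641 and 559 FPKM in the E12.5 mutant and control, 478 and 432 in the E13.5 mutants, and 458 and 424 in the E13.5 controls, so the ages did not overlap and the log2 difference was -0.42. Summed H2B was 276 and 226 FPKM at E12.5, 283 and 287 in the E13.5 mutants, and 380 and 299 in the E13.5 controls. It was higher in every E13.5 library, with a log2 difference of 0.32. Much of this rise came from Hist1h2bm, at 44.5 and 43.9 FPKM at E12.5 and 81.9 to 128 at E13.5. Without that gene the H2B sums of the ages overlap. The sums of H1 (80.8 to 90.6 FPKM), H2A (178 to 265) and H3 (65.4 to 92.2) overlapped between ages. At E13.5, the H2A sum read 178 and 181 FPKM in the mutant libraries against 265 and 201 in the controls, and the H3 sum 65.4 and 66.0 against 92.2 and 74.7. Both types were lower in each mutant than in each control, with log2 differences of -0.38 and -0.35. The H2B sum above was so too, with a log2 difference of -0.25. In all of these types the gap was widest to control replicate 1. The H1 and H4 sums overlapped between the genotypes at E13.5.

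Among the genes, Hist1h4d, an H4 gene at chr13:23581602-23581913, led by far. It stood at 538 and 476 FPKM in the E12.5 mutant and control, 399 and 362 in the E13.5 mutants, and 365 and 351 in the E13.5 controls. Its mean of 415 FPKM ranked 40 among all symbols and it supplied 79.6% to 85.1% of the H4 sum and 28.4% to 41.2% of the sum over all members. The 10 highest members together held 74.1% to 77.5% of that sum, and 18 members had a mean of at least 10 FPKM. After Hist1h4d came, in order of mean level per length, Hist1h2bl (84.2 FPKM), Hist1h2bm (79.8) and Hist2h2ac (68.8), whose ranges over the 6 libraries overlapped. The next H4 genes, Hist1h4c and Hist2h4, reached means of 32.9 and 26.0 FPKM.

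Among linker histone genes Hist1h1b was the highest, at 41.8 and 38.1 FPKM in the E12.5 mutant and control, 46.8 and 53.8 in the E13.5 mutants, and 49.3 and 47.9 in the E13.5 controls. Hist1h1a and Hist1h1e had means of 17.8 and 13.7 FPKM. Mutants and controls overlapped at E13.5 for Hist1h1b. Among H3 genes the 3 highest, Hist1h3e, Hist1h3d and Hist1h3i, lay close together, with means of 13.7, 13.2 and 11.4 FPKM. Of the 67 members, 3 were listed at 0 in every library (Hist1h2aa, Hist1h2ad and Hist1h2ah, H2A genes), and 50 were above 0 in all 6 libraries. Tests covered the 47 members with at least 1 FPKM in at least 2 libraries: 4 H1, 9 H2A, 15 H2B, 9 H3 and 10 H4 genes. The 20 others reached at most 1.36 FPKM in any library. Of the 47, 37 had at least 1 FPKM in every library.

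**Figure D2:**
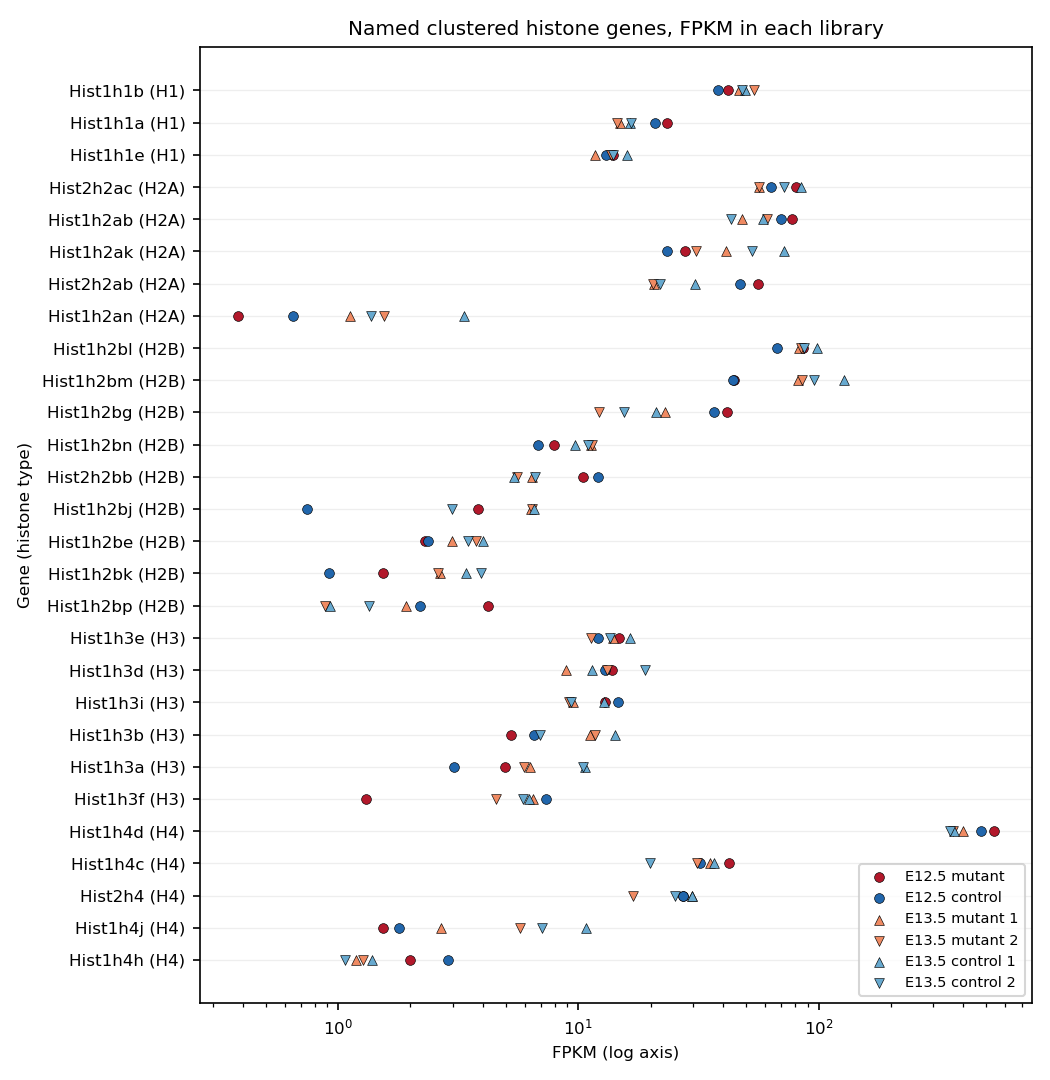
FPKM of the 28 named clustered histone genes (log axis), grouped by histone type and ordered by mean level, with 1 symbol per library: circles E12.5, triangles E13.5, red and orange mutants, blue controls. Hist1h4d stands at 351 to 538 FPKM, above every other member, and Hist1h2bm and Hist2h2ab have their E12.5 symbols on opposite sides of their E13.5 symbols.

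With age, individual histone genes moved in both directions. Of the 47 tested members, 16 (34.0%) passed at an adjusted p under 0.05 (limma moderated test on log2(FPKM + 1), additive in age and genotype, Benjamini-Hochberg over 10799 genes), 10 higher and 6 lower at E13.5, against 16.7% of all genes tested (7.45% higher and 9.26% lower). Of 190 other genes with short models, over 250 and up to 600 bases, 15.8% passed. By type, 8 of 15 H2B, 3 of 9 H2A, 2 of 9 H3, 2 of 10 H4 and 1 of 4 H1 genes passed. The median difference over the members was -0.03, close to that of all genes (-0.07).

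Hist1h2bm, an H2B gene, stood at 44.5 and 43.9 FPKM in the E12.5 mutant and control, 81.9 and 85.3 in the E13.5 mutants, and 128 and 95.3 in the E13.5 controls. Every E13.5 library was above both E12.5 libraries, and it rose by 1.10 ± 0.16 (log2, SE; 2.15-fold; adjusted p = 0.0028). Hist1h2ak, an H2A gene, read 27.9 and 23.4 FPKM at E12.5, 41.3 and 30.8 in the E13.5 mutants, and 71.5 and 53.0 in the E13.5 controls, and rose by 0.85 ± 0.23 (adjusted p = 0.033). This value lay between 0.34 without the E12.5 control and 1.36 without the E12.5 mutant, and the call was lost in 3 of 6 fits that left out a library. The ages did not overlap for this gene, and at E13.5 the controls were above the mutants. Hist1h4j, an H4 gene, showed the greatest rise among the members at 1.39 ± 0.26 (adjusted p = 0.0086), from 1.53 and 1.79 FPKM at E12.5 to 2.67 and 5.74 in the E13.5 mutants and 10.8 and 7.06 in the E13.5 controls. It thus went against the H4 sum, which Hist1h4d dominates. Hist1h3a and Hist1h3b, H3 genes, rose by 0.89 ± 0.22 (adjusted p = 0.026) and 0.77 ± 0.22 (adjusted p = 0.041). Leaving out 1 library moved Hist1h3a between 0.26 and 1.51, and it passed in 3 of 6 such fits and Hist1h3b in 2. The remaining genes that rose were Hist1h2bj (1.13), Hist1h2bk (0.90), Hist1h2bn (0.51) and Hist1h2be (0.45), all H2B, and Hist1h2an (0.86), H2A. Of these, Hist1h2an was under 1 FPKM in both E12.5 libraries (0.383 and 0.647), and Hist1h2bj and Hist1h2bk in the E12.5 control. They met the filter only with the help of E13.5 libraries, where they are high, and Hist1h2an through those alone. Its call is therefore no support for a rise.

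Among the genes that fell, Hist2h2ab, an H2A gene of the chromosome 3 cluster, stood at 56.2 and 47.1 FPKM in the E12.5 mutant and control, 20.6 and 20.4 in the E13.5 mutants, and 30.7 and 21.9 in the E13.5 controls. It fell by 1.12 on the log2 scale (SE 0.17; adjusted p = 0.0032), and every E13.5 library was below both E12.5 libraries. Hist1h2bg, H2B, fell by 1.12 (SE 0.22; adjusted p = 0.0099), from 41.6 and 36.7 FPKM at E12.5 to 22.9 and 12.2 in the E13.5 mutants and 20.98 and 15.4 in the E13.5 controls. Hist2h2bb, also H2B, fell by 0.81 (SE 0.12; adjusted p = 0.0029), from 10.4 and 12.1 FPKM at E12.5 to between 5.39 and 6.63 at E13.5. The ages overlapped in none of these 3 genes. Hist1h2bp (H2B) fell by 0.87, Hist1h4h (H4) by 0.62 and Hist1h1a (H1) by 0.48. Hist1h4d, the most abundant member, had a difference of -0.46 ± 0.16 and did not pass (adjusted p = 0.072), although its E12.5 libraries were both above its E13.5 libraries. Hist1h2ab, the H2A gene with the next highest mean after Hist2h2ac, had -0.49 ± 0.16 (adjusted p = 0.063).

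Hist1h2bm, Hist2h2ab and Hist2h2bb passed in each of the 6 fits that left out 1 library, and 9 of the 16 passed in at least 5 of them. With no filter on low values 0 members passed, where 0.132% of 23418 genes did, against 16.7% of all genes with the filter. The lowest adjusted p among the 16 was then 0.089, for Hist1h2bn. The E12.5 group is 2 libraries of different genotype, and each shapes the count: without the E12.5 control 9 members passed, 2 higher and 7 lower, and without the E12.5 mutant 10 passed, 7 higher and 3 lower. Calls were lost without the E12.5 control for Hist1h2ak, Hist1h2an, Hist1h2be, Hist1h2bj, Hist1h2bk, Hist1h2bn, Hist1h3a, Hist1h3b, Hist1h4h and Hist1h4j, and without the E12.5 mutant for Hist1h1a, Hist1h2an, Hist1h2be, Hist1h2bg, Hist1h2bn, Hist1h2bp and Hist1h3b. In the same fits the share of all genes that passed also fell, from 16.7% to 7.52% and 4.94%. Over all libraries, 12 members had every E13.5 library above both E12.5 libraries (25.5%, against 13.6% of all genes), and 9 had every one below (19.1%, against 22.9%). Members with at least 50% of their coding windows unique gave 5 calls among 14 tested (Hist1h1a, Hist1h2ak, Hist1h2bm, Hist2h2ab and Hist2h2bb), and the rest 11 among 33. Age cannot be told apart from the title number, and sex and globin RNA move with age too; their part in these differences was not tested.

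By position, the 10 rises lay in both groups of Hist1 genes and in neither of the other clusters tested. The Hist1 genes of chromosome 13 lie in 2 groups (GRCm38), 22 members within chr13:21715763-22043610 and 31 within chr13:23531044-23934851, and the division was drawn after the values were seen. In the first group, 7 of 15 tested members rose and 1 fell, with a median of 0.30, where 7.45% of all genes rose, 9.26% fell and the median was -0.07. In the second, 3 of 24 rose and 3 fell, with a median of -0.29. The chromosome 3 cluster (Hist2) had 2 that fell and none that rose among 6 tested, and the chromosome 11 cluster (Hist3) had no call among 2. The difference between the groups was not tested, and without the E12.5 control 2 members in all were called higher. Type and place overlap in part, since Hist1h4j and Hist1h2ak, which are no H2B genes, also rose in the first group. The 7 rises there also count Hist1h2an, an H2A gene that met the filter through E13.5 libraries alone.

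**Figure D3:**
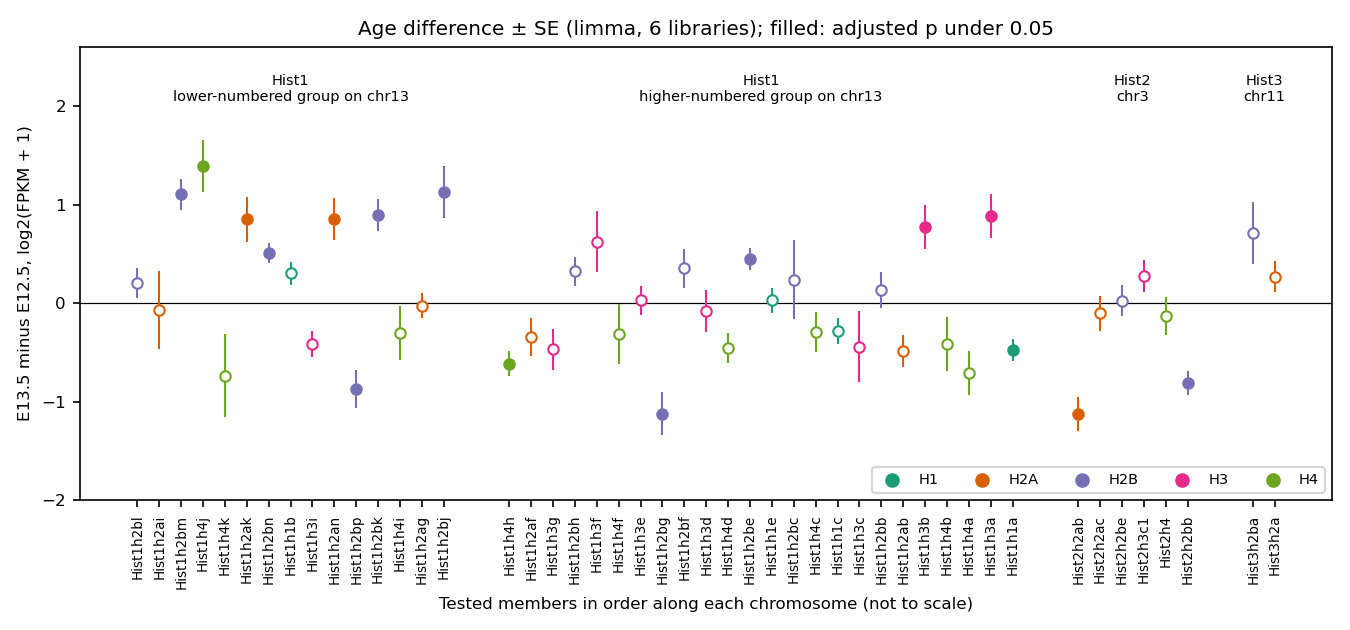
Difference between E13.5 and E12.5 in log2(FPKM + 1) for the 47 tested members, with its standard error, in their order along each chromosome (spacing not to scale); colours mark histone types and filled symbols an adjusted p under 0.05. In the Hist1 group with the lower coordinates 7 of 15 members are filled above 0, against 3 of 24 in the other Hist1 group.

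The stretches before the start of these genes carry elements known from histone promoters. In RefSeq promoters (GRCm38.p6; 250 bases before to 50 after the start), 60 members matched with 61 promoters, and motifs were searched on both strands. CCAAT, the letters bound by the factor NF-Y, was found in 85.2% of them against 37.4% of all 32851 promoters, and TATAAA in 57.4% against 13.6%. ATTTGCAT, the octamer bound by OCT1, was found in 23.0% against 1.74%, in 7 of 17 H2A and 7 of 16 H2B promoters and in 0 of 6 H1, 0 of 10 H3 and 0 of 12 H4 promoters. CCAAT was in every H1, H2A, H2B and H3 promoter listed but in 25% of 12 H4 promoters. Where promoter windows of an H2A and an H2B gene overlap, the same element can be counted for both genes. The octamer was so counted for Hist1h2ae and Hist1h2bg, Hist1h2ah and Hist1h2bk, and Hist1h2aa and Hist1h2ba. These shares are therefore not of independent promoters. The 150 bases before the start of an H2B gene that rose with age, 2 H2B genes that fell and an H2A gene that fell are given with these motifs, on either strand, in capitals; matches may overlap.
Hist1h2bm, chr13:21721894-21722043, plus strand: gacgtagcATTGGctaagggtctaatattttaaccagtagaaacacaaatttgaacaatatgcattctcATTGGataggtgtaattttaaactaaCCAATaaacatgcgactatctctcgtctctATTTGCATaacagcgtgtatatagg
Hist1h2bg, chr13:23571250-23571399, plus strand: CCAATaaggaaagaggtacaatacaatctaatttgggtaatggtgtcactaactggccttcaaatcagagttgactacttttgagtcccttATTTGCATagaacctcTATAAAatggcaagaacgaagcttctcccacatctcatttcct
Hist1h2bp, chr13:21787338-21787487, plus strand: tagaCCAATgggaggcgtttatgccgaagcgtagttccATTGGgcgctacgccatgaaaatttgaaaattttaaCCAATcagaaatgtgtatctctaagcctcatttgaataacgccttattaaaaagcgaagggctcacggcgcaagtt
Hist2h2ab, chr3:96219735-96219884, plus strand: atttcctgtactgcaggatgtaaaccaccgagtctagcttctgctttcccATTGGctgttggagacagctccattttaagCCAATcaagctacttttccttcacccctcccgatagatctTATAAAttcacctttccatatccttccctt
Hist1h2bm, which rose, and Hist1h2bg, which fell, both hold the octamer and CCAAT. H2A and H2B genes often start back to back: in 9 pairs the promoter windows of a member on each strand overlapped, and both genes were tested in 4. Of the 4, age differences had the same sign in 1 pair, and both genes passed in 2 pairs. Hist1h2ak and Hist1h2bn, the pair with the same sign, both rose (0.85 and 0.51). Hist1h2an and Hist1h2bp, which share the stretch printed for Hist1h2bp, differed in opposite directions (0.86 and -0.87), both at low levels: Hist1h2an ran from 0.383 to 3.33 FPKM and Hist1h2bp from 0.879 to 4.22. The model of Hist1h2bp has the letters of a poly A signal in its last 50 bases and no stem-loop. That of Hist1h2an ends with the coding sequence.

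Osr2RFP/- and Osr2RFP/+ cells were compared at E13.5, where each genotype has 2 libraries. Of the 47 tested members, 1 passed, Hist1h3a, lower in mutants (2.13%, against 1.29% of all genes, 0.435% lower). This H3 gene stood at 6.29 and 5.96 FPKM in the mutant libraries against 10.6 and 10.4 in the controls, and fell by 0.69 log2 units in mutants (SE 0.12; adjusted p = 0.027, limma). The groups did not overlap, and replicates lay closer together than the genotypes. Without either control replicate Hist1h3a no longer passed (adjusted p from 0.021 to 0.12 over the 6 fits that leave out a library), nor with no filter on low values, a filter on the mean, or the highest transcript alone. At E12.5 the order was the other way, with 4.93 FPKM for the mutant against 3.04 for the control.

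Most members sat lower in E13.5 mutants without passing. The difference was below 0 for 35 of 47, with a median of -0.22 against 0.04 for all genes, and 11 had an unadjusted p under 0.05 (9.24% of all genes did). In 17 members both mutants were below both controls (36.2%, against 13.2% of all genes), and in 1 both were above (2.13%, against 24.8%). Hist1h2ak had a difference of -0.77 ± 0.19 (adjusted p = 0.12), Hist1h4j -0.97 ± 0.27 (adjusted p = 0.18) and Hist2h2ac -0.46 ± 0.15 (adjusted p = 0.27). Hist2h2ac stood at 56.6 and 56.3 FPKM in the mutant libraries against 84.8 and 71.5 in the controls. Hist1h4d (0.08 ± 0.16) and Hist1h2ab (0.10 ± 0.18) were slightly above 0, with overlapping groups.

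E13.5 control replicate 1 stood apart from the other E13.5 libraries in these genes. It was the highest of the 4 E13.5 libraries in 29 of the 47 members (61.7%), as against 22.7% of all genes, and stood at a median of 0.32 above the mean of the other 3, against 0.01 for all genes. Control replicate 2 was at -0.02 on the same measure, between replicate 1 and the mutants (-0.16 and -0.13). Without control replicate 1 the median difference over the members was -0.07 (0.07 for all genes), 27 of 45 were below 0 and 2 passed, 1 in each direction, where 1.14% of all genes passed. Without control replicate 2 the median was -0.31 (0.02 for all genes) and 6 of 46 passed, all lower, where 1.19% of all genes passed. With the 3 E13.5 libraries of title number 3048 (without mutant replicate 1), the median was -0.23 (0.07 for all genes). This leaves 1 mutant library, with Xist at 138 FPKM, against controls with at most 0.00869. Genotype and sex cannot be told apart there.

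**Figure D4:**
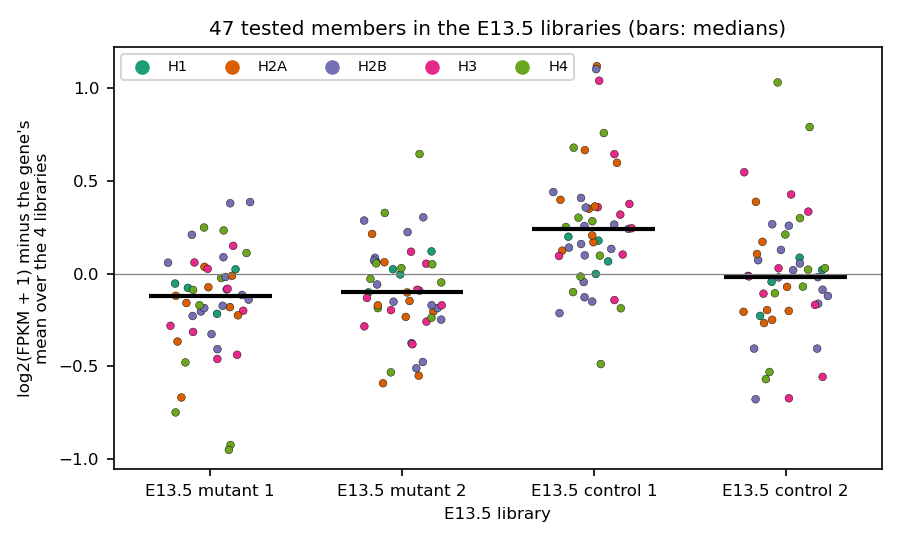
Level of each of the 47 tested members in the 4 E13.5 libraries, as log2(FPKM + 1) minus that gene's mean over the 4; 1 point is 1 gene, colours mark histone types and bars are medians. Control replicate 1 has most of its points above 0, and the median of control replicate 2 lies between that of replicate 1 and those of the mutants.

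At E12.5, with 1 library per genotype, differences are described by size alone. Of 29 tested members that reached 5 FPKM in either library, 1 differed by at least 1 on the log2 scale (0.936% of 6092 genes did, and 0.263% with the mutant lower): Hist1h3f, an H3 gene, with 1.30 FPKM in its mutant library against 7.31 in its control. In the E13.5 libraries this gene lay between 4.54 and 6.48 FPKM, so the E12.5 mutant alone was low. Across the 47 members the median difference was 0.15, near that of all genes (0.18), and 32 were above 0. Under 3 other scalings the median of all genes moved by -0.18 to -0.24, and that of the members became -0.03 to -0.11, so no direction is drawn for E12.5.

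Over both ages together no member passed for genotype (limma), against 1.44% of all genes, and 6 had an unadjusted p under 0.05 (13% of all genes did). Nor did any pass for the interaction of genotype and age, against 0.037% of all genes; 12 had an unadjusted p under 0.05, where 5.81% of all genes did. The smallest interaction p among the members was that of Hist3h2ba, an H2B gene of the chromosome 11 cluster that was singled out after its values were seen. It stood at 4.45 and 1.46 FPKM in the E12.5 mutant and control, 4.54 and 3.21 in the E13.5 mutants, and 6.68 and 6.21 in the E13.5 controls, an interaction of -1.77 ± 0.26 (adjusted p = 0.11). The mutant was thus above the control at E12.5, and both mutants were below both controls at E13.5. Hist1h3f (1.72 ± 0.27; adjusted p = 0.14) and Hist1h3a (-1.25 ± 0.20; adjusted p = 0.15) came next, in opposite directions. These genes were picked by their small p in these same data. Interaction fits that left out an E13.5 library keep the same E12.5 libraries, so they cannot serve as support. Each of these interaction values rests on 1 library per genotype at E12.5.

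Genes that act with the histones were read from lists, beside which stand the shares of all genes that rose (7.45%) or fell (9.26%) with age and their median of -0.07. Of 11 tested variant histone genes, whose mRNAs mostly carry a poly A tail and are made outside S phase too, 3 fell with age and none rose. H1f0, the H1 variant of resting cells, stood at 169 and 126 FPKM at E12.5 and between 89.2 and 98.0 at E13.5, and fell by 0.66 (SE 0.15; adjusted p = 0.018). H2afv, an H2A.Z gene, fell by 0.88 (adjusted p = 0.0038), and Cenpa, the H3 variant of centromeres, by 0.59 (adjusted p = 0.016). In these 3 genes every E13.5 library was below both E12.5 libraries.

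Of 29 genes of S phase, 10 fell and 3 rose with age, with a median of -0.29. Mcm5, a subunit of the replicative helicase, fell by 0.64 (adjusted p = 0.0045), while E2f1, a transcription factor of S phase entry, rose by 0.51 (adjusted p = 0.012). Among 20 histone chaperones 6 fell and none rose; Asf1b, which hands H3 and H4 to the assembly machinery, fell by 0.51 (adjusted p = 0.0096). The age difference was below 0 for 25 of the 29 S phase genes and for 18 of the 20 chaperones. Of 20 genes of histone mRNA 3' end processing and decay, 2 fell, Ncbp1 and Upf1, and none rose. Slbp stood at 24.5 and 19.6 FPKM in the E12.5 mutant and control, 20.1 and 22.1 in the E13.5 mutants, and 18.3 and 18.4 in the E13.5 controls, with an age difference of -0.15 ± 0.11 (adjusted p = 0.37). None of the 16 tested genes of the poly A tail machinery passed for age. Of them, 3 had an unadjusted p under 0.05, where 33.2% of all genes did. In these 5 lists no gene passed for genotype at E13.5 or over both ages.

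Of 7 listed RNAs that normally have no poly A tail, 3 were listed at 0 in every library and 4 were tested, of which 2 rose with age and 1 passed for genotype. Rmrp, the RNA of the RNase MRP complex, stood at 2.28 and 7.91 FPKM in the E12.5 mutant and control, 8.11 and 10.4 in the E13.5 mutants, and 21.5 and 24.6 in the E13.5 controls. It rose with age by 1.53 ± 0.13 (adjusted p = 0.00018) and was lower in mutants at both ages, by 1.24 at E13.5 (adjusted p = 0.0049) and by 1.31 over both (adjusted p = 0.0012). Rpph1, the RNA of RNase P, rose with age by 0.61 ± 0.18 (adjusted p = 0.043) and had a genotype difference at E13.5 of -0.67 ± 0.18 (adjusted p = 0.17). Both were higher in each E13.5 control than in each E13.5 mutant, as were 17 histone genes, and both were highest in control replicate 2, not in control replicate 1. The other tested members did not pass: Rnu12, a spliceosomal RNA, was listed at 0 in 4 libraries and at 6.84 FPKM in E13.5 mutant replicate 2, and Terc, the telomerase RNA, at 0 in 3 libraries and at most 1.49 FPKM. The part of poly A selection in the histone differences was not tested.

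As a description over 6 libraries that share their depth and scaling, the genes whose log2(FPKM + 1) followed the summed members most closely were Meaf6, Zfp658, Commd7, Txnl4b and AI462493, with Pearson's r of 0.982, 0.980, 0.980, 0.978 and 0.978. Meaf6, a subunit of histone acetyltransferase complexes, read 11.4 and 9.41 FPKM at E12.5, 8.47 and 8.18 in the E13.5 mutants, and 10.2 and 8.67 in the E13.5 controls. As with the histone sum, the E12.5 mutant and E13.5 control replicate 1 were its highest libraries. The likeness was read from values as deposited, and the high place of the E12.5 mutant in the histone sum depends on the scaling.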

How the data were processed

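RNA-seq was measured in 6 libraries (2 groups of 1 at E12.5, 2 groups of 2 at E13.5). Per the labels' protocols, poly A RNA was selected and sequenced in paired reads of 75 bases; because 2 library kits are named there, strandedness is not settled. Per the submitters' processing notes, TopHat 1.4.1 and Bowtie 0.12.7 were used with builds mm10 and mm9; per the file headers, the authors' values are FPKM from Cufflinks (version not given). The deposited coverage signal served only to estimate depth (14100000 to 18000000 fragments). The files give no counts, so no counting interval or count test was possible; precision is judged from replicate libraries. Positions in the files were read on GRCm38, where 63 of 66 GENCODE models overlapped the file's locus; locus starts were taken as counted from 0.

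FPKM was summed per symbol, 25 symbols with a failed estimate were left out, and genes with at least 1 FPKM in at least 2 libraries (10799) were tested on log2(FPKM + 1) with limma 3.58.1 in R 4.3.3 (trend, two-sided, Benjamini-Hochberg, threshold 0.05); differences and folds are on that scale and understate those of low genes. A fit of group means gave the E13.5 and interaction contrasts, assuming that the lone E12.5 libraries vary like the others, and an additive fit gave age and genotype over both ages. The procedure was tested on simulated data. Members named with values passed in a fit, met the E12.5 size rule (1 on the log2 scale at 5 FPKM) or were among the 3 highest of their type; related lists give up to 4 members that passed, and Slbp. The members and lists were chosen with earlier results of these data known. Alternatives changed the pseudocount (0.1 or 5), the filter, the scaling, the trend, the transcript choice, the libraries and, for genotype, a block on the title number.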

Additional observations from a re-analysis of the deposited data

How the results depend on the processing

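Among 255 alternatives for the 17 single-gene calls, 205 still passed and 50 lost their call. No sign was reversed, but a change of filter or trend leaves a gene's difference as it is and could not reverse it. With no filter on low values 0 members passed for E13.5 genotype, 0 for age and 4 for the interaction. The shares of all genes were 0.0214%, 0.132% and 1.46%. Among the 4, Hist1h2ap, Hist1h2ba and Hist2h2aa1 were at 0 in every E13.5 library and at most 0.637 FPKM at E12.5. With a mean of at least 1 FPKM, or the highest transcript of a symbol, 0 passed for E13.5 genotype, where 0.772% and 0.476% of all genes passed. The cause was not tested. Leaving out 1 library gave 1 to 6 members for E13.5 genotype, 0 to 1 over both ages, 9 to 20 for age and 2 to 7 for the interaction. In the same fits the shares of all genes moved too, over 1.14% to 2.80%, 0.664% to 1.70%, 4.94% to 16.9% and 0.14% to 0.505%. These fits leave 1 library of a genotype at E13.5, or 1 library at E12.5, so their counts show sensitivity alone. Only members with at least 50% of their coding windows unique gave 5 for age, an alternative chosen after seeing the data, as were the pseudocounts at E12.5, where 0.1 gave 2 members and 5 gave 0. The log2 difference of the summed FPKM at E13.5 was -0.265 to -0.0181 over the fits that left out 1 library, -0.0181 without control replicate 1; that with age was 0.0437 without Hist1h4d. At E12.5 it was -0.0139 under median ratio scaling, -0.0893 with equal FPKM sums and -0.00893 under upper quartile scaling, against 0.204 as deposited, so its sign depends on the scaling. The labels give no replicate numbers; with the number in the sample titles as a block, added after seeing the data, 0 members passed for genotype over both ages (3 at an unadjusted p under 0.05) on 2 residual degrees of freedom, and what that number marks is not stated. Tested members averaged about 7.56 to 4344 estimated fragments, and without counts the counting error of the low ones was not measured.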
